A study of Ovis aries with 32 samples.

Results

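The genes of cholesterol synthesis, uptake and efflux were examined in RNA-seq libraries of perirenal preadipocytes from fetal sheep and of adipocytes differentiated from such preadipocytes. The set has 32 gene names, listed by their known roles in the pathway, with earlier results of these data known. Of these, 29 names stood in the table, under 30 gene identifiers because INSIG2 had a pair of them, and all 30 reached a value of 10 in at least 4 of 32 libraries. They are 30 of the 12737 genes that passed this filter, out of 21271 genes in the table. The names ACAT2, NPC1 and SOAT1 were not found and were not analysed here.

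The 8 groups hold 4 libraries each. MC and FC are preadipocytes of male and female control fetuses, and MFGR and FFGR are preadipocytes of male and female growth-restricted fetuses. MCD, FCD, MFGRD and FFGRD are the corresponding cells after differentiation in culture. All fetuses were singletons of crossbred Columbia-Rambouillet ewes and were studied near term. In the growth-restricted groups the ewes had been kept at a high ambient temperature in mid-gestation, and control ewes were kept at a moderate temperature and pair-fed. Perirenal fat is a visceral depot around the kidney. The labels do not tie each library to a fetus, so p-values measure the spread between these libraries.

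Cells make cholesterol from acetyl-CoA through mevalonate, isoprenoids, squalene and lanosterol in the endoplasmic reticulum. SREBP-2, the product of SREBF2, drives the genes of this pathway when sterols are low. SCAP escorts SREBP-2 to the Golgi for its activation, and INSIG1 and INSIG2 hold both back in the endoplasmic reticulum when sterols are high. When sterols build up, the liver X receptors (LXR, NR1H2 and NR1H3) raise the exporters ABCA1 and ABCG1, their acceptor APOE, and MYLIP, which marks lipoprotein receptors for degradation. Adipocytes keep a large store of free cholesterol in and around the lipid droplet, and much of it is taken up from lipoproteins rather than made.

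Values are read counts after the authors' normalization, called normalized values here, and the transcripts of a gene were summed. Libraries held approximately 8.0 to 20.9 M reads, and 1 read stood for a value of approximately 0.71 to 1.83. The value of 1 read was estimated from the lowest clear peak among the low values of each library. It was highest in MFGRD 1, which also had the most genes above 0, 16927, followed by FCD 2 with 14892. Adipocyte markers (ADIPOQ, FABP4, PLIN1 and others, 7 of 8 listed genes in the table) had a median summed value of 345 in preadipocytes and of 14310 in differentiated cells. The lowest differentiated library had 406 and the highest preadipocyte library 2029. Macrophage markers (10 of 11 in the table) had a median summed value of 172 in preadipocytes (90.5 to 1240) and 323 in differentiated cells (122.5 to 951). C1QB, PTPRC and TYROBP had a median of 0 in both stages, AIF1 in preadipocytes and C1QA in differentiated cells, whereas CD14 had medians of 40.9 and 114, CD163 of 4.03 and 40.8 and CD68 of 92.2 and 63.2 in preadipocytes and differentiated cells. Steroidogenic markers (4 of 4) had a median sum of 9.66 in preadipocytes (3.22 to 89.8) and 71.4 in differentiated cells (19.8 to 1368). Endothelial markers (6 of 6) had medians of 39.5 (10.1 to 92.7) and 19.8 (5.84 to 287), with CDH5 and CLDN5 at a median of 0 in both stages. Mesothelial markers (2 of 4 in the table) had medians of 22.8 (2.03 to 155.6) and 41.9 (0.704 to 126.7). Fibroblast and preadipocyte markers (6 of 6) stayed abundant, with medians of 636400 (110900 to 1202000) and 445000 (74270 to 906200), whereas DLK1 had a median of 0 in both stages. In whole cultures, fewer cells of a type and less RNA per cell cannot be told apart. The part of any of these in the results below was not tested.

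In 9 libraries the genes with a long genomic span were low relative to short genes (MCD 2, MCD 4, MFGR 1, MFGRD 1, FC 2, FCD 2, FFGR 2, FFGR 3 and FFGRD 3). Several cholesterol genes followed this split. In preadipocytes ABCA1, whose gene spans 116029 bases, had a median of 123 in the 4 such libraries and 1768 in the other 12. In the same libraries TM7SF2, with a span of 4386 bases, had medians of 968 and 82.2, and APOE, with a span of 2524 bases, had medians of 9125 and 1890.2. Of the 30 genes, 10 had medians at least 1 log2 unit higher in these libraries in both stages (APOE, EBP, FDFT1, FDPS, INSIG1, INSIG2-B, MVD, MVK, NR1H3 and TM7SF2), and ABCA1 was the 1 gene at least 1 log2 unit lower. Calls of the 30 genes that rest on these libraries are therefore given with and without them. Medians over the 17 synthesis enzymes, and their directions outside the mean differentiation comparison, are given with all libraries only. All of the 9 but MCD 2 and FCD 2 make up the 7 libraries set apart in an earlier clustering.

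**Figure D1:**
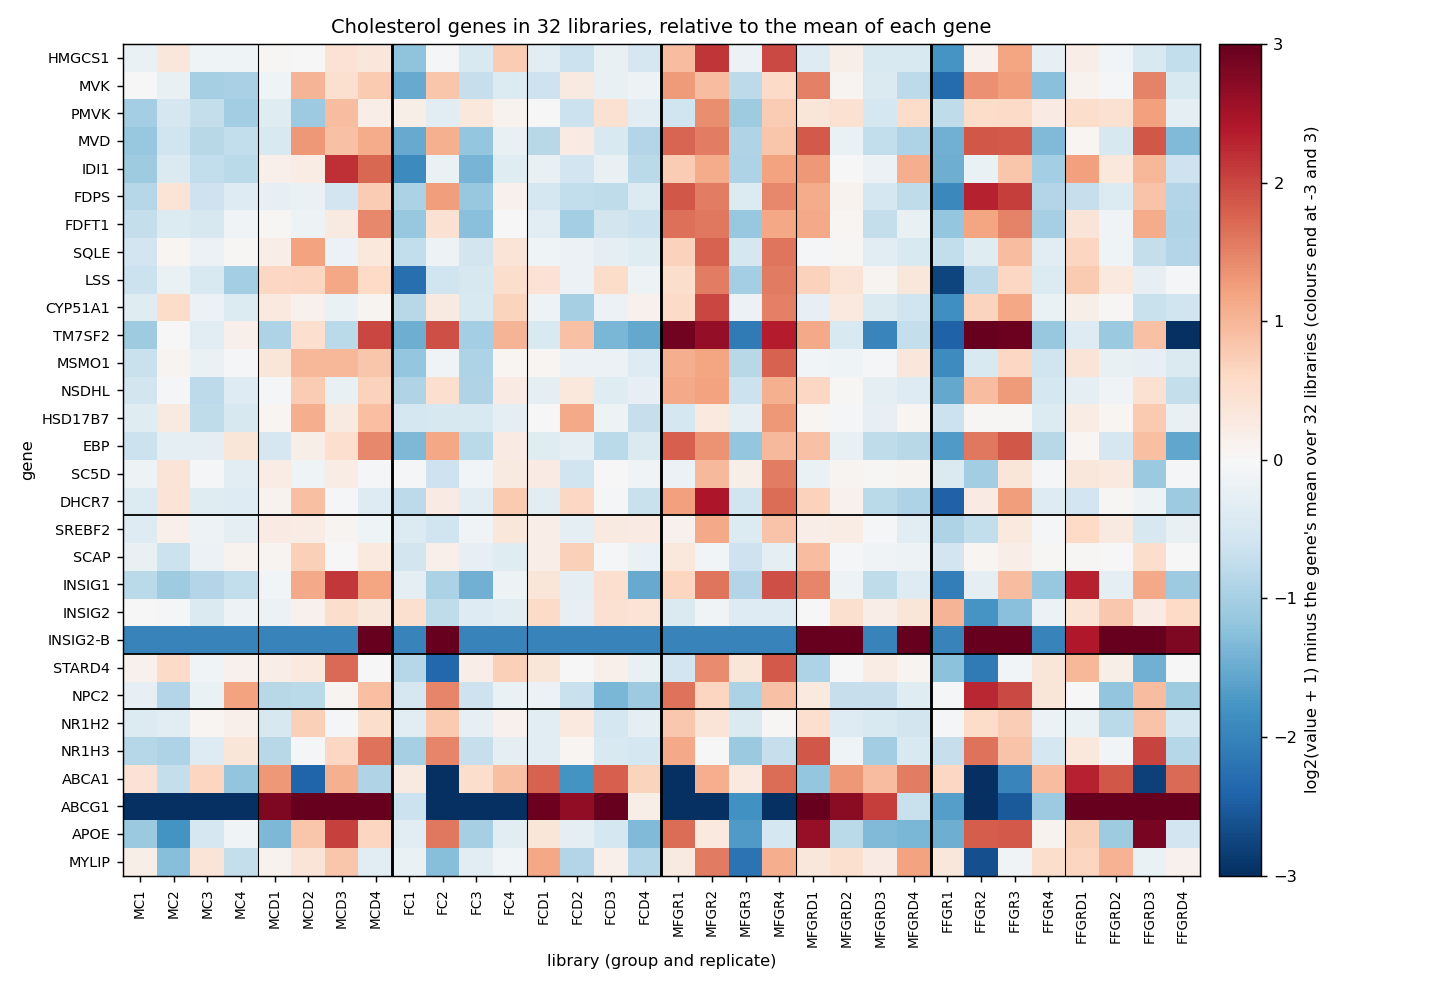
Heat map of the 30 cholesterol genes (rows, synthesis enzymes at the top in pathway order, then regulators, transport, and LXR with efflux) in 32 libraries (columns, by group). Colour gives log2(value + 1) minus the gene's mean over all libraries. ABCG1 was below its mean in all 16 preadipocyte libraries and above it in all differentiated libraries but MFGRD 4. All 17 synthesis enzymes were above their mean in MFGR 2, MFGR 4 and FFGR 3. In MFGR 1 14 of 17 were above it, in MFGR 3 1 of 17, and in MC 1, MC 3, FFGR 1 and FFGRD 4 0 of 17.

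The first comparison asked which cholesterol genes changed with differentiation, as the mean of the 4 pairs of groups. ABCG1, which exports cholesterol to lipoproteins, was upregulated from near 0, and the enzymes IDI1 and LSS and the regulator INSIG2 were upregulated by less than 2-fold. NPC2, which hands cholesterol out of the lysosome, was downregulated. These 5 of the 30 genes passed the test, an adjusted p-value below 0.05 with a fold change above 1.5. Over all genes tested, 27.2% passed, 12.4% upward and 14.8% downward. Of the 30 cholesterol genes, 4 passed upward, near the share of all genes, and 1 downward, below that share. Their median log2 fold change was 0.19, beside 0.03 over all genes.

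The 17 enzymes of the synthesis branch gave 7 positive and 10 negative log2 fold changes with a median of -0.02, and only IDI1 and LSS passed. Without the 9 libraries of low span slope, every enzyme but HSD17B7 (0.17) had a higher value than with all libraries. FDFT1 (0.23) and NSDHL (0.11) were then positive. IDI1, which converts isopentenyl to dimethylallyl diphosphate, lies on chromosome 13 (47935327 to 47941799 on Oar_rambouillet_v1.0). In males its values were 1108, 1709, 1376 and 1308 in MC and 2560.3, 2707, 10572 and 7609 in MCD, and 3942, 4992, 1222 and 5291 in MFGR and 5700.3, 2345, 2029 and 4914 in MFGRD. In females they were 609, 2015, 884 and 1781 in FC, 1973, 1538, 1984 and 1316 in FCD, 837, 2012, 4127 and 1129.7 in FFGR, and 5414, 2871, 4592 and 1509 in FFGRD. All MCD libraries were above all MC libraries, and in the other 3 pairs the stages overlapped. IDI1 was upregulated by 0.83 on the log2 scale (SE 0.27, 1.77-fold, adjusted p = 0.0206). It kept its call in all 11 alternatives and in all 32 fits that left out 1 library, with log2 fold changes of 0.71 to 1.04.

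LSS, lanosterol synthase, closes the first sterol ring system and lies on chromosome 1 (289257786 to 289287742). Its values in males were 95.5, 129.8, 108 and 73.1 in MC and 229.9, 235, 337 and 226 in MCD, and 217, 434, 73.0 and 444 in MFGR and 241, 199, 159 and 189.6 in MFGRD. In females they were 30.3, 98.1, 107 and 216 in FC, 204, 133, 221 and 134 in FCD, 21.3, 86.4, 231 and 112 in FFGR, and 257, 185, 126 and 144 in FFGRD. The preadipocytes covered a far wider range than the differentiated cells, from 21.3 to 444 against 126 to 337. LSS was upregulated by 0.74 (SE 0.28, 1.67-fold, adjusted p = 0.0435). The call lay near the threshold: it was kept in 7 of 11 alternatives and in 14 of 32 fits without 1 library, and with the replicate number as a block its adjusted p was 0.0552.

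The remaining 15 enzymes did not pass. Those before IDI1 had log2 fold changes of -0.38 (HMGCS1, which makes HMG-CoA), 0.37 (MVK, mevalonate kinase), 0.24 (PMVK, phosphomevalonate kinase) and 0.13 (MVD, mevalonate diphosphate decarboxylase). FDPS, which makes farnesyl diphosphate, had -0.49, FDFT1, squalene synthase, -0.02, and SQLE, squalene epoxidase, -0.16. After lanosterol the values were -0.37 for the demethylase CYP51A1, -0.99 for the reductase TM7SF2, 0.26 for the methyl oxidase MSMO1, -0.01 for NSDHL and 0.41 for HSD17B7, and then -0.29 for the isomerase EBP, -0.09 for the desaturase SC5D and -0.32 for DHCR7, the last reductase before cholesterol. TM7SF2 had the widest 95% confidence interval of them, -2.23 to 0.24, and passed as lower with library weights, or when the libraries' span slope entered the fit. MVK passed as higher without the 7 libraries set apart (0.68, adjusted p = 0.0180), and without the 9 of low span slope it had 0.58 (adjusted p = 0.0457), below the fold threshold.

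**Figure D2:**
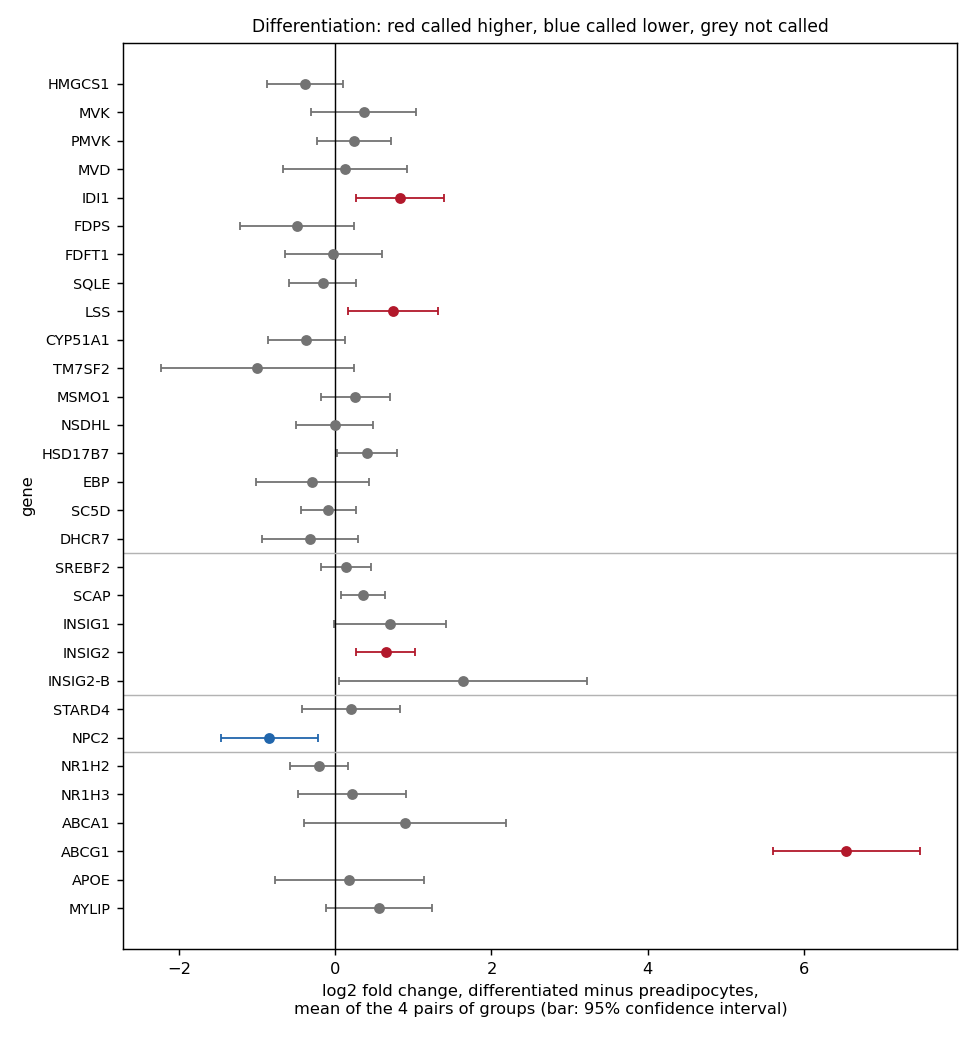
Log2 fold change of each of the 30 genes with differentiation, mean of the 4 pairs of groups, with its 95% confidence interval. Red genes were called higher, the blue gene lower, and grey genes did not pass. ABCG1 lies apart at 6.54, and the synthesis enzymes in the top block scatter on both sides of 0.

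Among the regulators, INSIG2, on chromosome 2 (196713764 to 196726150), passed. Its values in males were 227, 222, 171 and 206 in MC, 204, 253, 330.0 and 292 in MCD, 169.8, 212, 175 and 177 in MFGR, and 233, 324, 264 and 296 in MFGRD. In females they were 320.4, 136, 177 and 182 in FC, 345, 194, 315 and 304 in FCD, 464, 66.5, 96.1 and 204 in FFGR, and 306, 403, 272 and 350.4 in FFGRD. The MFGRD libraries lay above all MFGR libraries, and the other pairs overlapped. INSIG2 was upregulated by 0.64 (SE 0.19, 1.56-fold, adjusted p = 0.00793). Its 2 lowest values stood in FFGR 2 and FFGR 3, both of low span slope. Without the 9 libraries of low span slope its log2 fold change was 0.43 (adjusted p = 0.0209), below the fold threshold, and leaving out FFGR 2 alone also ended the call, at 0.54.

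A second identifier with the symbol INSIG2, called INSIG2-B here, lies on chromosome 18 (59156388 to 59157065, 678 bases) and was listed at 0 in 21 of 32 libraries and between 20.2 and 134 in the other 11. Reads could be shared between it and INSIG2, so its values are uncertain. It stood at 0 in all MC, MFGR and FCD libraries and above 0 in all 4 FFGRD libraries (20.2, 134, 63.4 and 27.0). It did not pass in the mean comparison (log2 fold change 1.64, SE 0.77, adjusted p = 0.107). It passed as higher in 4 of 10 alternatives: 2.27 without the 9 libraries of low span slope (adjusted p = 0.00285), 2.27 without the 7 set apart (adjusted p = 0.00132), 2.21 with library weights (adjusted p = 0.00433) and 1.58 when the span slope entered the fit (adjusted p = 0.0321). Leaving out MFGRD 3 or FC 2 alone also gave a call. All 12 preadipocyte libraries not of low span slope were at 0. The fits without the 9 libraries, a set chosen after seeing the data, or without the 7 therefore held only values of 0 in preadipocytes. Their calls are no separate support for a rise.

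INSIG1, itself a target of SREBP-2, did not pass. Its values in males were 215, 179.6, 204 and 226 in MC, 357, 823, 1639 and 855 in MCD, 586, 1139, 205 and 1431 in MFGR, and 1043, 336, 221 and 289 in MFGRD. In females they were 307, 194, 138 and 338 in FC, 485, 305, 532 and 131 in FCD, 88.9, 306, 717 and 171 in FFGR, and 1860.4, 309, 829 and 177 in FFGRD. The MC libraries were the tightest group, and every MCD library lay above them. The log2 fold change was 0.70 (SE 0.35, adjusted p = 0.125).

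SREBF2, the gene of the pathway's main activator, did not pass. In males it had 941, 1350.2, 1100.0 and 1014 in MC, 1446, 1434, 1294 and 1119 in MCD, 1343, 2707, 924 and 2206 in MFGR, and 1393, 1424, 1175 and 986 in MFGRD. In females it had 923, 804, 1129 and 1549 in FC, 1404, 1011, 1483 and 1439 in FCD, 647, 727, 1489 and 1191 in FFGR, and 1855, 1477, 881 and 1052 in FFGRD. The highest values were those of MFGR 2 and MFGR 4, and the stages overlapped in every pair. Its log2 fold change was 0.14 (SE 0.15, 95% confidence interval -0.18 to 0.45). SCAP, the escort of SREBP-2, had 0.36 (SE 0.14, adjusted p = 0.0440) and stayed below the fold threshold.

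Of the transport genes, NPC2 passed and STARD4, a carrier of cholesterol between membranes, did not (log2 fold change 0.20, SE 0.31). NPC2 lies on chromosome 7 (89528937 to 89537859). Its values in males were 1206, 773, 1244 and 3322 in MC, 799, 821, 1504 and 2658 in MCD, 4392, 2222, 739.5 and 2629 in MFGR, and 1759, 891, 889 and 1102 in MFGRD. In females they were 1009, 3948, 926 and 1254 in FC, 1267, 900.3, 554 and 670.2 in FCD, 1366, 6817, 5678 and 1848 in FFGR, and 1410.3, 628, 2697 and 685 in FFGRD. The stages overlapped in every pair, and the highest preadipocyte values were in FFGR 2, FFGR 3, MFGR 1 and FC 2, the 4 of low span slope. NPC2 was downregulated, with a log2 fold change of -0.85 (SE 0.30, 1.80-fold lower, adjusted p = 0.0316). Without the 9 libraries of low span slope the value was -0.62 (adjusted p = 0.0674), and 22 of 32 fits without 1 library kept the call.

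ABCG1, on chromosome 1 (285784697 to 285863952), differed most between the stages. In males it was listed at 0 in all 4 MC libraries and had 115, 376, 660.3 and 347 in MCD, and it had 0, 0, 3.70 and 0 in MFGR and 357, 108, 68.8 and 9.46 in MFGRD. In females it had 9.60, 0, 0 and 0 in FC, 127, 103, 212 and 17.6 in FCD, 4.25, 0, 1.88 and 6.81 in FFGR, and 707, 332, 246 and 207 in FFGRD. The stages did not overlap in any of the 4 pairs. It stood at 0 in 11 of 16 preadipocyte libraries, and the highest of the others held approximately 8.62 reads.

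The log2 fold change of ABCG1 on the log2(value + 1) scale was 6.54 (SE 0.46, adjusted p = 5.83e-11). It depends on the pseudocount, being 8.89 with 0.1 and 3.97 with 10, and is no bound. Against MC, with each library taken at the limit that a count of 0 allows (3 reads), the mean of MCD was 109-fold higher. That limit averaged a value of 3.44, and the MCD libraries ranged from 115 to 660.3. The ratio of means leaves out this spread. The 2 lowest differentiated values were those of MFGRD 4 and FCD 4. The call was kept in all 11 alternatives and all 32 fits without 1 library. ABCG1 reached a value of 10 in 15 libraries, all of them differentiated, and no preadipocyte library exceeded 9.60. It therefore passed the filter only through the stage in which it was high.

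**Figure D3:**
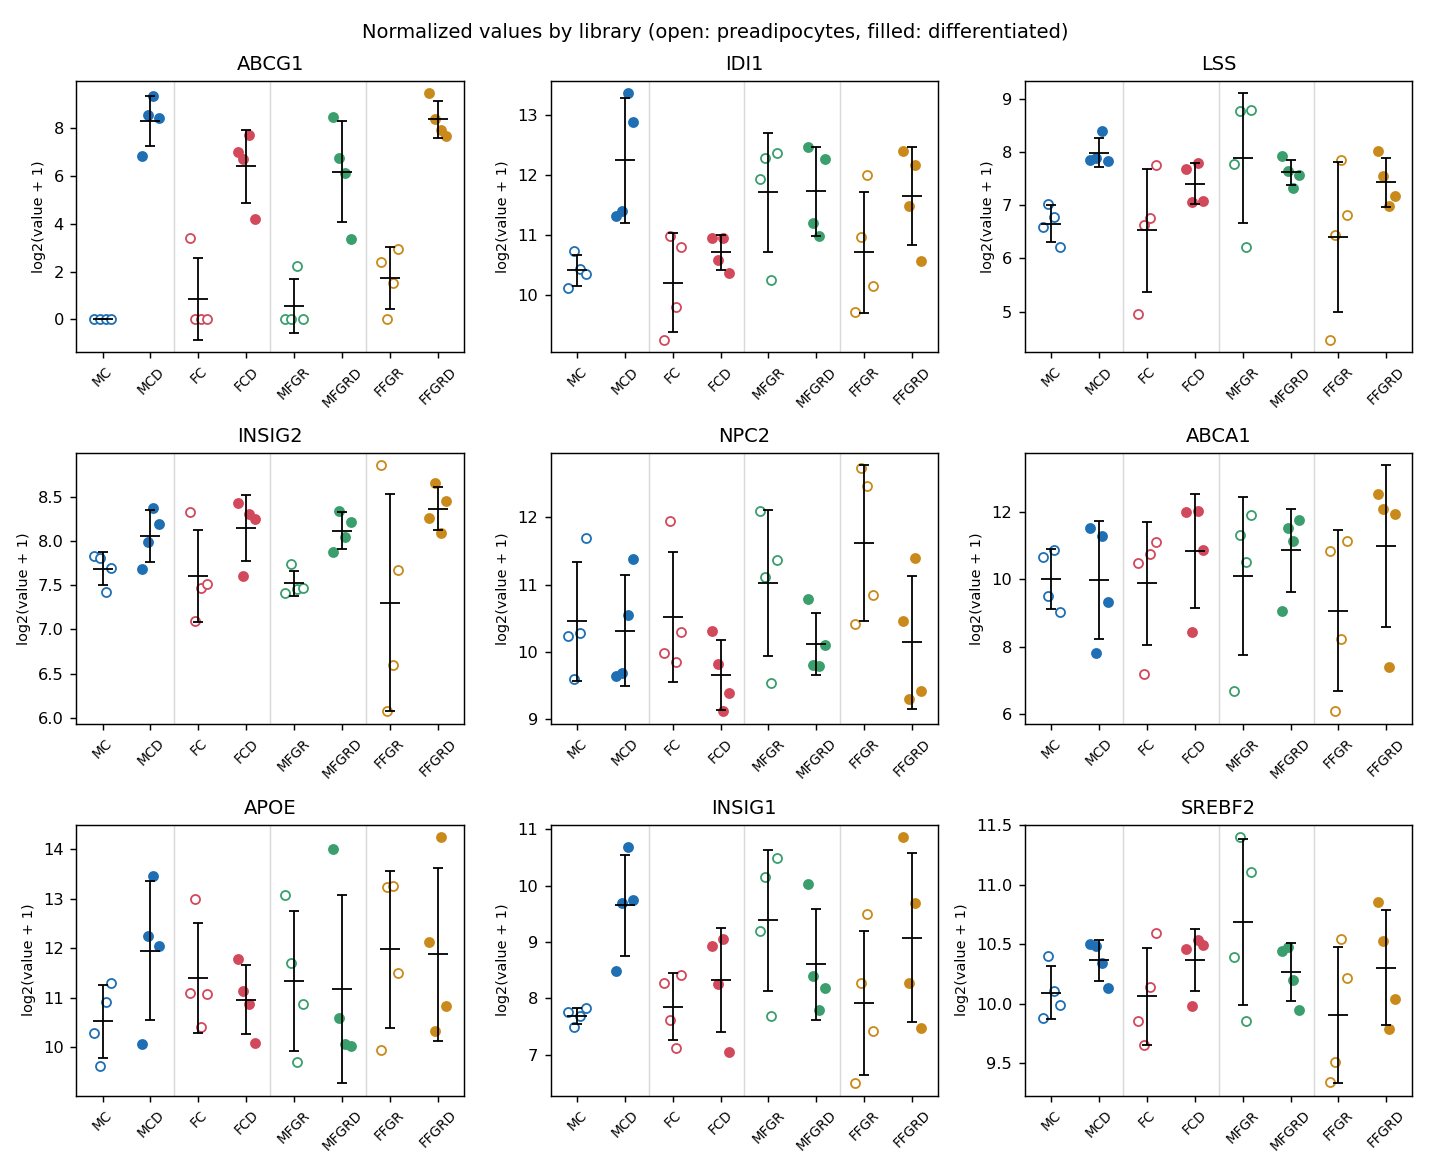
Values of 9 cholesterol genes in each library, as log2(value + 1), by group. Open points are preadipocytes, filled points differentiated adipocytes, and bars give the mean and SD of 4 libraries. The stages separate in all 4 pairs for ABCG1, whereas ABCA1 and APOE vary over several log2 units within most groups.

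ABCA1, which exports cholesterol to lipid-poor apolipoprotein and is also an LXR target, did not pass in the main comparison. In males it had 1603, 719, 1849 and 524 in MC, 2897, 223, 2498 and 636 in MCD, 102, 2539.9, 1452 and 3774 in MFGR, and 528, 2896, 2258 and 3415 in MFGRD. In females it had 1419, 144, 1713 and 2210.0 in FC, 4065, 342, 4102 and 1873 in FCD, 1823, 66.5, 299 and 2238 in FFGR, and 5844, 4313, 168 and 3872 in FFGRD. The differentiated libraries of low span slope lay between 168 and 636 and the other 11 between 1873 and 5844. The log2 fold change was 0.90 (SE 0.63, adjusted p = 0.302). Without the 9 libraries of low span slope it was 0.91 (adjusted p = 0.00347) and called. ABCA1 was also called when the span slope entered the fit, at 0.96 (adjusted p = 0.000310). Without the 7 libraries set apart in an earlier clustering it was 0.41 (adjusted p = 0.460). That fit left out every preadipocyte library of low span slope but kept the differentiated MCD 2 (223) and FCD 2 (342), also of low span slope.

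APOE, the apolipoprotein that accepts exported cholesterol, was abundant in every library, from 784 to 19480.2. In males it had 1247, 784, 1916 and 2527 in MC, 1068, 4852, 11199.8 and 4205 in MCD, 8655, 3329, 835 and 1865 in MFGR, and 16429.5, 1547, 1071 and 1048 in MFGRD. In females it had 2180.1, 8135, 1359 and 2158 in FC, 3504, 2258, 1863 and 1079 in FCD, 984, 9595, 9758 and 2906 in FFGR, and 4451, 1289, 19480.2 and 1817 in FFGRD. The stages overlapped in every pair, and its log2 fold change was 0.18 (SE 0.47, 95% confidence interval -0.77 to 1.14). The receptors NR1H2 and NR1H3 had -0.21 (SE 0.18) and 0.22 (SE 0.34), and MYLIP had 0.56 (SE 0.33, adjusted p = 0.210).

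In the separate pairs, ABCG1 was upregulated in all 4 pairs, and IDI1 in MC was the only other member that passed. The log2 fold change of ABCG1 was 8.31 in MC (adjusted p = 9.48e-06), 5.56 in FC (adjusted p = 0.000970), 5.63 in MFGR (adjusted p = 0.000436) and 6.65 in FFGR (adjusted p = 5.28e-05), each with SE 0.92. Of all genes tested, 8.35% passed in MC (3.8% upward), 2.52% in FC (1.08% upward), 5.13% in MFGR (2.03% upward) and 10.3% in FFGR (4.33% upward), beside 2, 1, 1 and 1 of 30 cholesterol genes, all upward. In FC, fitted on its own 8 libraries, ABCG1 no longer passed.

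The synthesis enzymes had different directions in the 4 pairs. In MC all 17 had positive log2 fold changes, with a median of 0.74 (all genes -0.02). In FC 8 of 17 were positive, with a median of -0.02, and in FFGR 7 of 17, with a median of -0.08. In MFGR 15 of 17 were negative, with a median of -0.79 (all genes 0.06). Of the 34 enzyme values in MC and MFGR only IDI1 in MC passed. MCD 2 and MCD 4 are of low span slope, and no MC library is. Relative to each gene's mean over the 32 libraries, the 17 enzymes averaged 0.44 in MCD 2 and 0.75 in MCD 4, in log2 units. They averaged -0.03 in MCD 1 and 0.37 in MCD 3, and -0.62 to -0.01 in the MC libraries. The part of span slope in the MC directions was not tested.

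IDI1 in MC was upregulated by 1.84 (SE 0.55, 3.57-fold, adjusted p = 0.0345). This call was lost without any 1 of the 4 MC libraries, without MCD 3 or MCD 4, and without the libraries of low span slope. In MC 6 of the 30 genes had stages that did not overlap, near the share of all genes, 16.3% in either direction. These 6 were higher in MCD (ABCG1, IDI1, INSIG1, LSS, MSMO1 and MVD), and the upward share of all genes is not given here. INSIG1 had 1.96 (SE 0.69, adjusted p = 0.0804), MVD 1.53 (SE 0.78, adjusted p = 0.259), LSS 1.34 (SE 0.57, adjusted p = 0.155) and MSMO1 1.00 (SE 0.43, adjusted p = 0.164). With the replicate number as a block MVD passed in MC as well, although the numbers did not pair all MC libraries.

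In MFGR the lowest values were those of TM7SF2 (-1.94, SE 1.20), HMGCS1 (-1.50, SE 0.47, adjusted p = 0.0635), DHCR7 (-1.41, SE 0.60, adjusted p = 0.202) and CYP51A1 (-1.22, SE 0.48, adjusted p = 0.158). None passed in the main fit. HMGCS1 passed as lower when the span slope entered the fit, and with library weights CYP51A1, DHCR7, HMGCS1, SC5D, SQLE and STARD4 passed as lower.

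**Figure D4:**
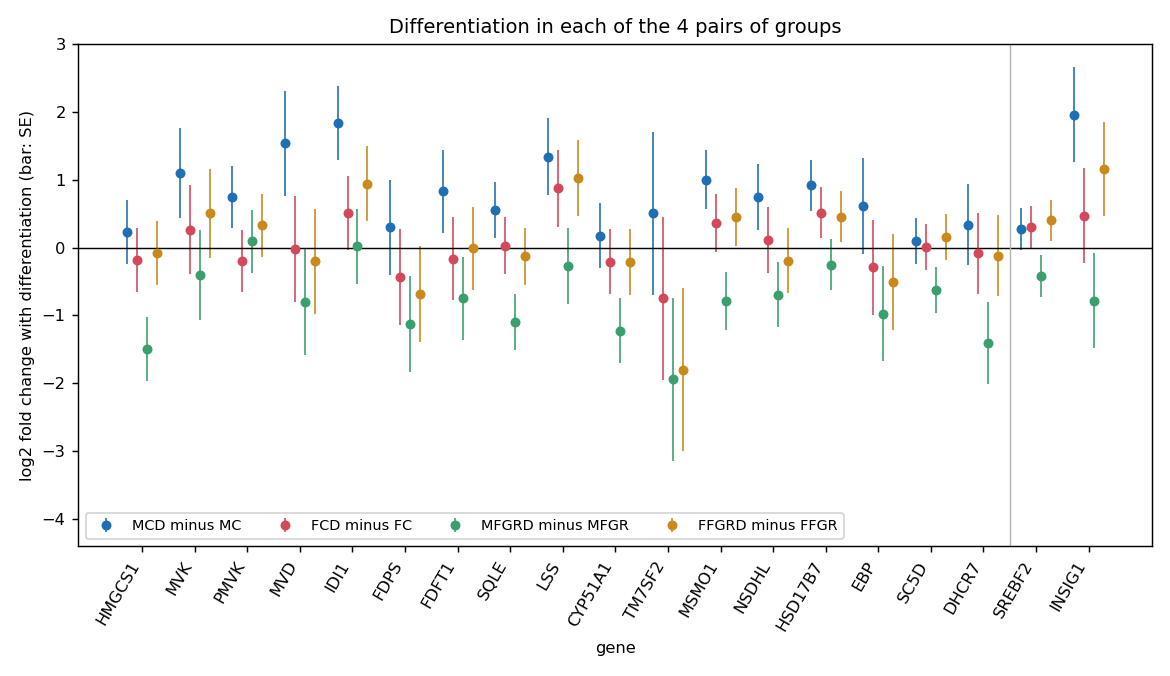
Log2 fold change with differentiation (points, with SE) of the 17 synthesis enzymes, SREBF2 and INSIG1 in each of the 4 pairs of groups. All 17 enzymes lie above 0 in MC and 15 of 17 lie below 0 in MFGR, but only IDI1 in MC passed the test.

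The next comparison asked whether growth restriction changed cholesterol genes before differentiation. No gene of any kind passed in limma: 0 of 30 cholesterol genes and 0% of all genes, in both sexes together and in each sex. At an unadjusted p-value below 0.05, 4 of 30 cholesterol genes and 2.7% of all genes were counted in both sexes together. In females it was 0 of 30 and 1.33% of all genes, and in males 12 of 30 and 1.37% of all genes. These 12 genes were all higher in MFGR than in MC, and 11 of them are synthesis enzymes, with INSIG1 as the other.

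The values in males show what this count rests on. HMGCS1 had 1522, 2216, 1592 and 1598 in MC and 3297, 7671, 1536 and 6944 in MFGR. SQLE had 699, 1081, 918 and 1075 in MC and 1698, 3551, 721 and 3167 in MFGR, and DHCR7 had 103, 184, 106 and 106 in MC and 324, 744, 89.8 and 442 in MFGR. MFGR 2 and MFGR 4 were high, MFGR 1 was intermediate in these 3 genes, and MFGR 3 stood within or below the range of the MC libraries, so the groups overlapped for each of these genes.

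HMGCS1 had a log2 fold change of 1.24 (SE 0.47), SQLE of 1.05 (SE 0.42), INSIG1 of 1.69 (SE 0.69), MVD of 1.63 (SE 0.78) and FDPS of 1.47 (SE 0.71), each with an adjusted p of 1. All 17 enzymes had positive values with a median of 1.14, beside -0.02 over all genes. Leaving out MFGR 2 or MFGR 4 took the count at an unadjusted p-value below 0.05 from 12 to 0, and leaving out MFGR 3 raised it to 19. Leaving out MC 1 gave 3, MC 3 gave 5, MC 4 gave 6 and MFGR 1 gave 7. It was 15 without the 9 libraries of low span slope and 6 with only the MC and MFGR libraries in the fit.

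**Figure D5:**
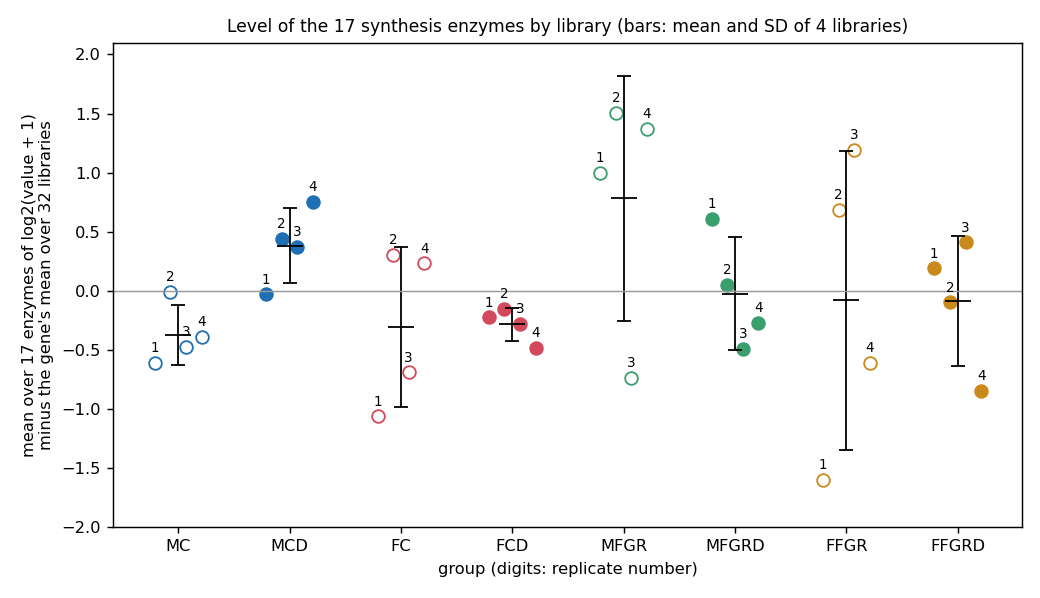
Mean over the 17 synthesis enzymes of log2(value + 1), relative to each gene's mean over all libraries, for each library by group (digits are replicate numbers, bars the mean and SD of 4 libraries). MFGR 1, 2 and 4 stand at 1.00, 1.51 and 1.37 and MFGR 3 at -0.74, and FFGR spreads from -1.60 to 1.19, whereas the FCD libraries lie between -0.48 and -0.15.

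In several groups the enzymes moved together between the libraries. Relative to each gene's mean over the 32 libraries, the mean of the 17 enzymes was 0.78 in MFGR (SD 1.04, n = 4), -0.08 in FFGR (SD 1.27, n = 4), -0.37 in MC (SD 0.26, n = 4) and -0.31 in FC (SD 0.68, n = 4), in log2 units. After differentiation the means were 0.38 in MCD (SD 0.32, n = 4), -0.03 in MFGRD (SD 0.48, n = 4), -0.29 in FCD (SD 0.14, n = 4) and -0.09 in FFGRD (SD 0.55, n = 4). Both growth-restricted preadipocyte groups were the most spread, and FCD the least. In FFGR the libraries of low span slope stood at 0.68 (FFGR 2) and 1.19 (FFGR 3), and FFGR 1 and FFGR 4 at -1.60 and -0.61. In MFGR the library of low span slope, MFGR 1, stood at 1.00, and MFGR 2, 3 and 4 at 1.51, -0.74 and 1.37. The part of span slope in this spread was not tested.

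In MFGR 15 of 17 enzymes had their lowest value in replicate 3, as did 25% of all genes. In FFGR 16 of 17 had their lowest value in replicate 1 (23.4% of all genes) and 12 of 17 their highest in replicate 3 (11.7%). In MC 13 of 17 had their highest value in replicate 2 (26.2%), in FC 12 of 17 their lowest in replicate 1 (23%), and in FFGRD 14 of 17 their lowest in replicate 4 (17.8%). MCD and FCD had no such library, with at most 7 of 17 lowest or highest in any of them. FFGR 3 is a library of low span slope, and MFGR 3, FFGR 1, MC 2, FC 1 and FFGRD 4 are not.

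After differentiation, growth restriction was again followed by 0 of 30 calls and 0% of all genes in limma. The genes with an unadjusted p-value below 0.05 numbered 1 of 30 in both sexes together (1.07% of all genes), 1 in males (2.69%) and 2 in females (1.51%). The enzymes had a median log2 fold change of -0.45 in males, MFGRD below MCD for 15 of 17, and of 0.14 in females, with 12 of 17 positive. The summed adipocyte markers had a median of 69420 in MCD (10700 to 184200) and 9813 in MFGRD (4902 to 119400), and of 10360 in FCD (406 to 19890) and 32730 in FFGRD (5420 to 173800). They differed in the same direction as the enzymes in each sex, and their part in these values was not tested. MSMO1 had 1465, 2284, 2266 and 2016 in MCD and 1068, 1038, 1106 and 1428 in MFGRD (log2 fold change -0.78, SE 0.43). ABCG1 accounted for the count in males, at -2.12 (SE 0.92), and in females it had 1.96 (SE 0.92) beside INSIG2-B. INSIG2-B, at 0 in FCD, passed in females with library weights and in both sexes together with library weights or without the 7 libraries set apart.

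Comparisons of the sexes gave 0 of 30 calls and 0% of all genes in limma as well. The paper, with DESeq2 and the same cut-offs, did list differing genes in each of these sex comparisons. The 0% therefore belongs to this test and does not show that the sexes were alike. At an unadjusted p-value below 0.05 there were 0 of 30 cholesterol genes in control preadipocytes (1.06% of all genes), 3 in control differentiated adipocytes (4.33%), 10 in growth-restricted preadipocytes (2.79%) and 1 in growth-restricted differentiated adipocytes (0.754%). In control differentiated adipocytes all 17 enzymes were higher in MCD than in FCD, with a median difference of 0.63 (all genes -0.03). MCD 2, MCD 4 and FCD 2 are of low span slope, and this difference is given with all libraries only. The adipocyte marker sum was higher in MCD as well, with the medians of 69420 and 10360 given above, and its part was not tested. For 5 of the 30 genes these groups did not overlap, beside 1.93% of all genes in either direction: FDFT1, HMGCS1, IDI1, LSS and MSMO1. IDI1 differed most of them, by 1.53 (SE 0.55, adjusted p = 0.953), and MSMO1 by 0.97 (SE 0.43, adjusted p = 0.955).

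In growth-restricted preadipocytes 16 of 17 enzymes were higher in MFGR than in FFGR, with a median difference of 0.73 (all genes 0.02). The 10 genes at an unadjusted p-value below 0.05 were HMGCS1, LSS, SQLE, CYP51A1, MSMO1, SC5D, DHCR7, STARD4, INSIG1 and SREBF2, all higher in MFGR. MSMO1 had a log2 fold change of 1.38 (SE 0.43, adjusted p = 0.946) and SREBF2 of 0.79 (SE 0.31, adjusted p = 0.946). This count was 3 without MFGR 2, 2 without MFGR 4, 5 without FFGR 1, 20 without the 9 libraries of low span slope and 0 with only the MFGR and FFGR libraries in the fit.

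The last comparison asked whether the response to differentiation differed between groups, as an interaction. Again 0 of 30 cholesterol genes and 0% of all genes passed. For growth-restricted against control cells in both sexes together, 2 of 30 had an unadjusted p-value below 0.05 (1.04% of all genes). For MFGR against MC it was 10 of 30 (1.25%), for FFGR against FC 0 (0.479%), for MC against FC 1 (1.04%) and for MFGR against FFGR 1 (0.581%). In MFGR against MC all 17 enzymes had a negative difference, with a median of -1.58 (all genes 0.04), and INSIG1 had -2.74 (SE 0.98, adjusted p = 0.995), MSMO1 -1.79 (SE 0.61) and SQLE -1.65 (SE 0.59). This comparison shares its MC and MFGR libraries with those above and is no separate evidence. Its count ranged from 4 without MFGRD 3 to 16 without MFGR 3.

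Other genes of the pathway, 29 of 32 from a list made for this work, gave 4 upregulated and 6 downregulated genes in the mean differentiation comparison, beside 12.4% and 14.8% of all genes. CYP27A1, which makes 27-hydroxycholesterol, an LXR ligand, was upregulated from a median of 185 to 397 (log2 fold change 1.27, SE 0.26, adjusted p = 0.000341). LPCAT3, a phospholipid-remodelling LXR target, had medians of 268 and 592 (1.26, SE 0.34, adjusted p = 0.00440). RXRA, the partner of LXR, was upregulated by 1.09 (SE 0.20), and ERLIN1, an endoplasmic reticulum protein that restrains SREBP processing, by 0.81 (SE 0.22).

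Downregulated most was PLTP, the phospholipid transfer protein and also an LXR target, from a median of 323 to 30.9 (-3.50, SE 0.39, adjusted p = 1.08e-07). HSD3B7, an enzyme of bile acid synthesis, had -2.26 (SE 0.27), VLDLR, a lipoprotein receptor, -2.10 (SE 0.31), and CH25H, which makes 25-hydroxycholesterol, -1.80 (SE 0.46), each with the adjusted p past the threshold. The remaining 2 that fell were STARD5 and LIPA. All calls on this list are given with all libraries only, and the alternatives were not applied to them. CH25H, with a span of 813 bases, and HSD3B7, with 2972 bases, are short genes, and the part of span slope in their values was not tested.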

How the data were processed

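RNA was sequenced from 32 cultures, 4 per group, after library construction with a Swift RNA kit. The authors checked reads with FastQC (0.11.9 per the submitters' processing notes), removed reads whose mean Phred quality was under 34, used Salmon for transcript abundance on Oar_rambouillet_v1.0 and normalized with DESeq2. The deposited values are this signal per transcript and library, in normalized reads, not whole counts. The 21 columns of the authors' own comparisons hold fold changes and p-values and were not used.

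Transcript values were summed per gene identifier (35219 transcripts, of which 8509 had no name). Genes with a sum of at least 10 in at least 4 libraries were tested with limma 3.58.1 in R 4.3.3 (lmFit, eBayes with trend) on log2(value + 1), with 1 mean per group over all 32 libraries and 20 comparisons, two-sided. P-values were adjusted by Benjamini-Hochberg over all 12737 genes, and genes below 0.05 with a fold change above 1.5 were called. The script was tested on simulated data. Full values were given for the 4 largest called changes per direction plus APOE, ABCA1, INSIG1 and SREBF2. The cholesterol genes, the pathway list and the marker lists were chosen with earlier results of these data known. Library correlations were 0.677 to 0.972, and no pair of libraries had identical values for more than 2.25% of the genes tested. Same-numbered libraries deviated together in MC (r of 0.16 to 0.61), MFGR (0.39 to 0.67) and FC (0.30 to 0.51), but not in FFGR (-0.40 to 0.56). In MFGR and FC each preadipocyte library correlated most with the differentiated library of its own number, but MC 2 did so with MCD 1. By this check the numbers pair the libraries in MFGR and FC, and not for all of MC. The block fit was an alternative. The other alternatives changed the pseudocount, scaling, filter, feature, libraries, covariate or weights. The promoter motifs planned were not searched, since no sequence was used here.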

Additional observations from a re-analysis of the deposited data

Results flagged for a closer look

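In each group of 4 libraries the most extreme library was compared with the spread of the others on the log2(value + 1) scale by Dixon's gap ratio at its 95% critical value, for 29 of the cholesterol genes. A library lay beyond that value in 15 of 231 groups with any spread, and chance gives approximately 1 in 20. For ABCG1 the 2 such groups have 3 libraries at 0, where any value above 0 passes by construction, which leaves 13 of 229.

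The exporter ABCA1 was low in FC 2, at 143.567, and in FFGRD 3, at 168.212. ABCG1 had 3.70039 in MFGR 3 and 9.59858 in FC 1, where the other 3 libraries of each group were at 0. APOE was high in MFGRD 1, at 16429.5, as were the LXR gene NR1H2, at 576.632, and the SREBP escort SCAP, at 1211.54. SCAP was also high in FFGRD 3, at 906.516. FC 2, FFGRD 3 and MFGRD 1 are libraries of low span slope, and the part of this in these values was not tested.

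Of the synthesis enzymes, HMGCS1 was high in MC 2, at 2215.54, and in MFGRD 2, at 1976.56. DHCR7 was high in MC 2, at 183.678, and LSS in MCD 3, at 336.938. TM7SF2 was low in MFGR 3, at 28.32, and so was NSDHL, at 188.825. SREBF2 was low in FCD 2, at 1011.14, another library of low span slope.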

How the results depend on the processing

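No result changed direction past a threshold. With differentiation, as the mean of the 4 pairs, the count of 5 cholesterol genes became 3 with quantile normalization and 8 with the span slope as a covariate. Without 1 library it ranged from 2 to 6: it was 2 without FFGR 2 and 3 without MC 4, MCD 2, MFGR 1, FCD 3 or FFGRD 2. In MC the count of 2 became 1 with no filter, without the 7 libraries set apart or without the 9 of low span slope (chosen after seeing the data), 6 with only its own libraries or with library weights, and 1 to 3 without 1 library, being 1 without any MC library, MCD 3 or MCD 4. In FC the count of 1 became 0 with its own libraries and 2 with library weights. In MFGR the count of 1 became 3 with the span slope, 8 with library weights, 2 without the 7 or the 9 libraries, and 1 to 5 without 1 library, with 5 without MFGR 3 and 2 without MFGRD 3. In FFGR the count of 1 became 3 with the span slope, 2 with library weights, 2 without the 7 libraries, 3 without the 9, and 1 to 2 without 1 library, with 2 without FFGR 1 or FFGRD 3. For growth restriction after differentiation the count of 0 became 1 in both sexes with library weights or without the 7 libraries, and 1 in females with library weights. The causes were not tested.

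When the replicate number entered as a block, 4 genes were called in the mean comparison (LSS was lost). There were 3 in MC, 1 in FC, 1 in MFGR and 3 in FFGR, where INSIG2 and NPC2 were added. The numbers did not pair the libraries in FFGR, nor all of them in MC. For the log2 fold changes of single genes in the mean comparison, 1239 values kept their side of the threshold, 37 lost it and 11 gained it. The deposited values are not whole counts, so depth limits low genes such as ABCG1 in preadipocytes and INSIG2-B.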
